A study of Homo sapiens with 36 samples.

Results

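The 47 genes described here act in G2 and mitosis: they code for the kinases and cyclins of mitotic entry, the spindle checkpoint, the anaphase-promoting complex's partners, the kinetochore, the chromosomal passenger complex, spindle motors and the cytokinesis machinery. They were chosen by name, as a list of mitotic genes, with earlier results of these data known. All 47 of 47 had a value among the 22260 genes measured. Transcripts of such genes rise as cells pass through G2 and fall again in G1, driven by FOXM1, by MYBL2 with the MuvB complex and by NF-Y, and repressed by the DREAM complex downstream of p53 and p21. In cells whose DNA replication is blocked, checkpoint kinases hold CDK1 with cyclin B inactive, so that entry into mitosis is delayed. In bulk cultures such as these, fewer cells in G2 and less of a transcript per cell cannot be told apart.

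The study asked how the response to camptothecin, which traps topoisomerase I on DNA and so stalls replication forks, depends on SLFN11, a Schlafen protein that acts at stalled forks. Expression arrays were run on DU145, a human prostate carcinoma line, and on CCRF-CEM, grown from a human acute lymphoblastic leukaemia of T cells, with the SLFN11-proficient parent and an SLFN11 knockout of each. Each of these 4 cell types was sampled with the treatment given as none, called control here, after 6 h and after 12 h in 250 nM camptothecin, with 3 arrays in each of the 12 groups and 36 in all. Every group grew in RPMI1640 medium with fetal bovine serum. The labels do not say when the controls were harvested, whether a knockout is a clone or a pool, or whether the 3 arrays of a group came from separate cultures. The p-values therefore measure only the spread between these arrays, and loss of SLFN11 cannot be told apart from other differences between a knockout and its parent.

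Values are log2 signals normalized by the authors, and a gene's value is that of its brightest probe set with that symbol alone. Each ± gives limma's moderated standard error (SE), and a gene is called at a Benjamini-Hochberg adjusted p below 0.05 over all 22260 genes of a contrast. Arrays of 1 group correlated at 0.979 to 0.988 (Pearson's r over the 22260 genes), and array medians over all probe sets lay between 4.78 and 4.86. Untreated DU145 parent cells had a median level of 10.84 for 6 epithelial markers and 6.55 for 8 T-lineage markers, and untreated CCRF-CEM parent cells 6.63 and 11.7. SLFN11 itself had 11 probe sets, and the labels do not place the edit. Its brightest probe set stood 0.41 higher in the untreated DU145 knockout than in the parent and 0.34 higher in CCRF-CEM, and since a transcript can persist after an edit and a probe set can lie outside it, this does not check the labels. Probe set 16843409, singled out after its values were seen, lay at 7.16 to 7.96 in the DU145 parent controls against 3.93 to 5.58 in the knockout, and at 8.70 to 8.95 against 7.64 to 7.86 in CCRF-CEM.

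Promoters of mitotic genes often hold a cell cycle genes homology region, the element that the DREAM and MuvB complexes contact, and CCAAT boxes, which NF-Y binds. RefSeq promoters (GRCh38.p14, 250 bases before to 50 after the start) were at hand for 40 of the 47 genes. The 3 with the most negative mean change over the camptothecin contrasts among these 40, CCNB1, KIF20A and HMMR, and the 2 with the highest, KIF2C and ESPL1, are shown from 150 bases before to 30 after the start. They lie at chr5:69167000-69167179, chr5:138178962-138179141, chr5:163460482-163460661, chr1:44739687-44739866 and chr12:53268149-53268328, each on the plus strand. Capitals mark the letters TTTGAA or TTCGAA and the letters CCAAT, on either strand (ATTGG is CCAAT on the other strand).
CCNB1: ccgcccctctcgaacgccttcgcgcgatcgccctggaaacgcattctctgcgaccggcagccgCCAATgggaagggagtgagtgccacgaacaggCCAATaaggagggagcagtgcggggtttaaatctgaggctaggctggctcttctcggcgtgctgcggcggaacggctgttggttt
KIF20A: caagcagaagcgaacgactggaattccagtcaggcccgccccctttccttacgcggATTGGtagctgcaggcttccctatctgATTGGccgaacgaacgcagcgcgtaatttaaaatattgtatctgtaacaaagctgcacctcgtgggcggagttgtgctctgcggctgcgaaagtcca
HMMR: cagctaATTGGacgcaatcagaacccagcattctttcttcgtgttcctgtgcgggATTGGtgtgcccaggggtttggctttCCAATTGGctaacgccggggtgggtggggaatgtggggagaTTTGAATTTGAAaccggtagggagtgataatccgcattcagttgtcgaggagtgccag
KIF2C: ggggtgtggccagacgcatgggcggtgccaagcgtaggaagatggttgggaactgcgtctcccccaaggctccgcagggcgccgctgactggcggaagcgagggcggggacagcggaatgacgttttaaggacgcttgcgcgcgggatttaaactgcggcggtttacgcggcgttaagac
ESPL1: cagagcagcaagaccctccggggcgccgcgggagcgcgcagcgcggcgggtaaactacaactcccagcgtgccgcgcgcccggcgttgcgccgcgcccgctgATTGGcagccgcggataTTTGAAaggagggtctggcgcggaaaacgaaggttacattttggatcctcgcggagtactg

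In these letters CCNB1 and KIF20A held 2 CCAAT boxes each and neither TTTGAA nor TTCGAA. Other forms of the homology region were not searched for. HMMR held TTTGAA on the plus strand at -28 and -22 from the start and CCAAT boxes at -144, -95, -69 and -66, of which those at -69 and -66 overlap. ESPL1 held TTTGAA at -31 and a CCAAT box at -48, and KIF2C held none of these motifs. Over the full windows 27 of the 40 members (67.5%) held TTTGAA or TTCGAA, against 16.6% of all 27305 promoters in the table. CCAAT was found in 30 members (75.0%) against 35.7% of all promoters, and both motifs in 23 (57.5%) against 6.58%. A match is a description of the letters and not a bound site. Of the 27 members with TTTGAA or TTCGAA, 14 fell at 6 h in the DU145 parent and 12 in its knockout. In the CCRF-CEM parent 19 of them fell, and in its knockout 15. Among the 13 members without these letters 4, 5, 5 and 4 fell, in the same order. These counts were not tested against each other.

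After 6 h of camptothecin between 19 and 27 of the 47 members had fallen in each of the 4 cell types, and most of the members that were not called also had a mean below control. In the DU145 parent 21 members fell and 0 rose, where 4.42% of all genes fell and 5.67% rose, and the median change of the members was -0.32 against 0.04 over all genes. In the DU145 knockout 19 fell and 0 rose (3.39% and 5.32% of all genes), with a median of -0.33. In the CCRF-CEM parent 27 fell and 1 rose (5.06% and 7.36% of all genes), with a median of -0.37, and in the CCRF-CEM knockout 22 fell and 0 rose (2.92% and 3.52%), with a median of -0.38. Of the 8 T-lineage markers 4 fell in the CCRF-CEM parent at 6 h (median -0.31) and 3 at 12 h (median -0.34), and 1 and 2 in the knockout (medians -0.11 and -0.20). Their part in the members' changes was not tested. At 6 h a change of at least 2-fold was seen for UBE2C in the DU145 knockout, for KIF20A in the CCRF-CEM parent, and for PTTG1, HMMR, KIF20A and CENPE in the CCRF-CEM knockout. Without control replicate 1, or without 6 h replicate 3, the DU145 parent count was 13, and without 6 h replicate 1 the DU145 knockout count was 10.

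These 4 contrasts share no arrays, and 11 members fell in all 4 of them. They are the cyclin CCNB1, the kinases AURKA, BUB1 and BUB1B, the kinetochore proteins CENPE and CENPF, the motors KIF14 and KIF4A, the ubiquitin-conjugating enzyme UBE2C, the spindle protein HMMR, and CDCA3, a trigger of mitotic entry. Another 6 fell in 3 of the 4, 7 in 2 and 13 in 1. The remaining 10 fell in none: BUB3, MAD2L1, UBE2S, NEK2, CKAP2, PRC1, FOXM1, ESPL1, TACC3 and KIF2C. How many of all genes fell in all 4 contrasts was not counted, so the overlap has no all-gene share beside it.

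**Figure D1:**
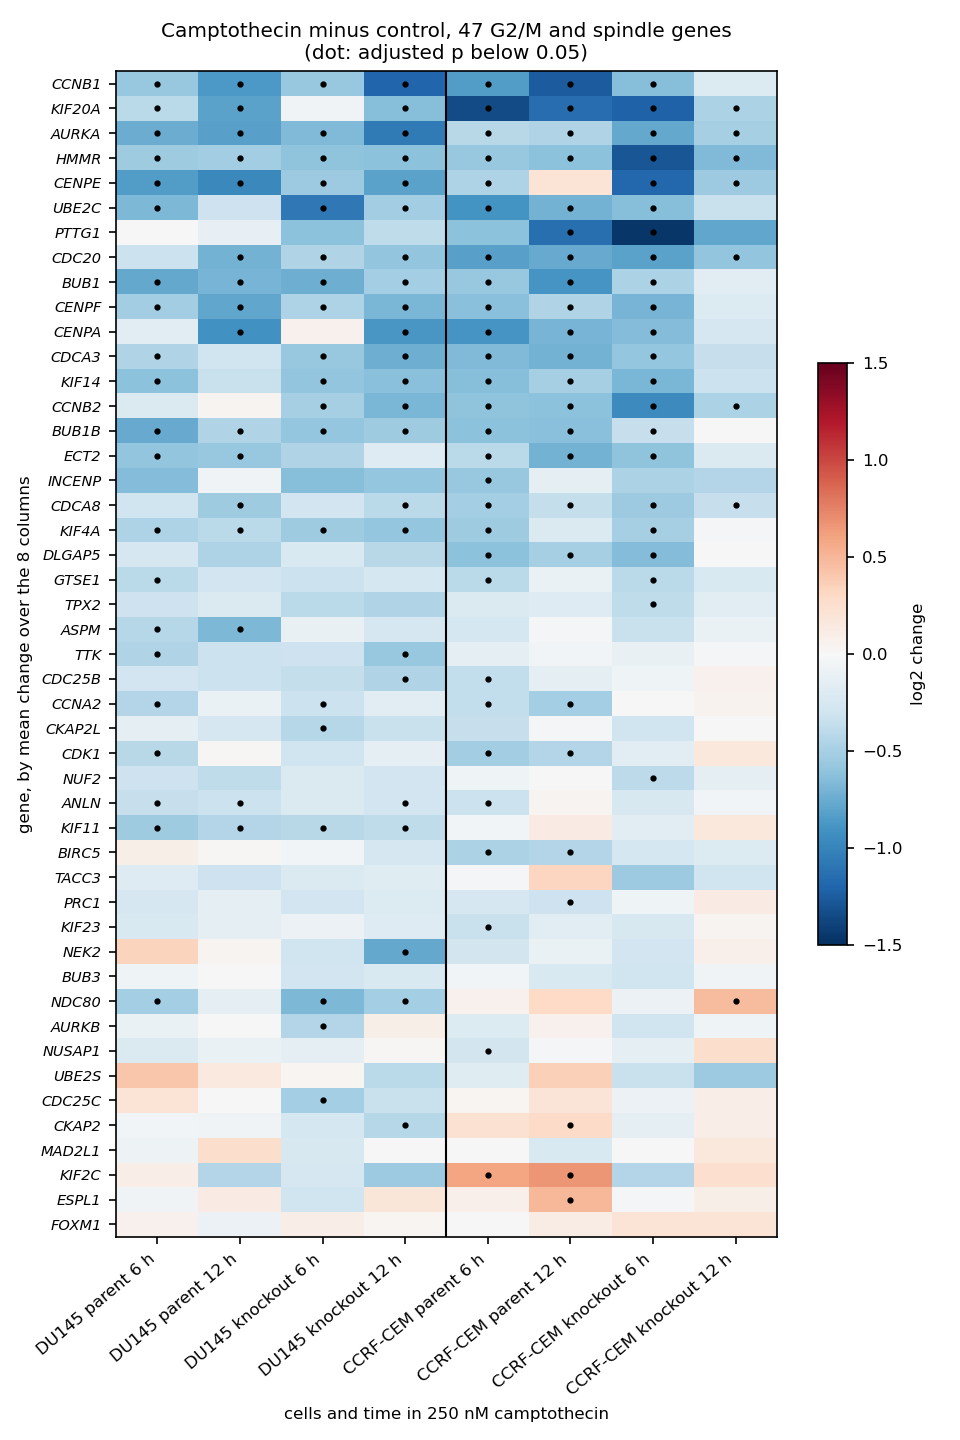
Colour shows the log2 change from control for each of the 47 genes (rows, ordered by their mean change) in the 8 camptothecin contrasts (columns), and dots mark an adjusted p below 0.05. Blue fills most of the upper rows in all columns. In the CCRF-CEM knockout at 12 h 31 of the 47 changes were below 0, but dots mark only 7 genes that fell and 1 that rose. FOXM1 in the lowest row has no dot.

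By 12 h the count of fallen members was lowest in the CCRF-CEM knockout. Members still lay below control in DU145, where 16 fell in the parent and 23 in the knockout with 0 rising (3.89% and 3.72% of all genes fell, 3.8% and 6.31% rose), and the medians were -0.31 and -0.41. In CCRF-CEM 21 fell and 3 rose in the parent, with a median of -0.22 (7.3% and 9.51% of all genes). The CCRF-CEM knockout had 7 fallen members and 1 risen, with a median of -0.10 (2.81% and 5.4% of all genes). That last count of 8 calls was 3 without control replicate 1 or control replicate 3, 2 without 12 h replicate 1 and 4 without 12 h replicate 3. The 12 h contrasts use the same control arrays as the 6 h contrasts. At 12 h 5 members had fallen in all 4 cell types, CDC20, AURKA, HMMR, CDCA8 and KIF20A, and 16 had fallen in none. The share of all genes that fell in all 4 was not counted here either. In the CCRF-CEM knockout the CDCA8 call was lost without any 1 of the 6 arrays, that of KIF20A without any of 5 and that of AURKA without control replicate 3 or 12 h replicate 1, while those of CDC20 and HMMR held without each array.

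The median of the 47 members in each array, set against the mean of the parent controls of its line, shows the same course. In DU145 parent arrays it was -0.35, -0.277 and -0.272 at 6 h and -0.324, -0.29 and -0.214 at 12 h. DU145 knockout arrays began at 0.143, 0.252 and 0.254, and were at -0.164, -0.105 and -0.073 after 6 h and at -0.126, -0.121 and -0.12 after 12 h. All treated DU145 arrays lay below the controls of their own genotype, and the 6 h and 12 h arrays overlapped within each genotype. CCRF-CEM parent arrays were at -0.423, -0.364 and -0.347 at 6 h and at -0.275, -0.222 and -0.21 at 12 h. CCRF-CEM knockout arrays moved from 0.061, 0.073 and 0.095 in controls to -0.333, -0.314 and -0.28 at 6 h and to -0.075, -0.062 and -0.037 at 12 h. In both CCRF-CEM genotypes the 12 h arrays lay above all 6 h arrays and below all controls of the same genotype.

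**Figure D2:**
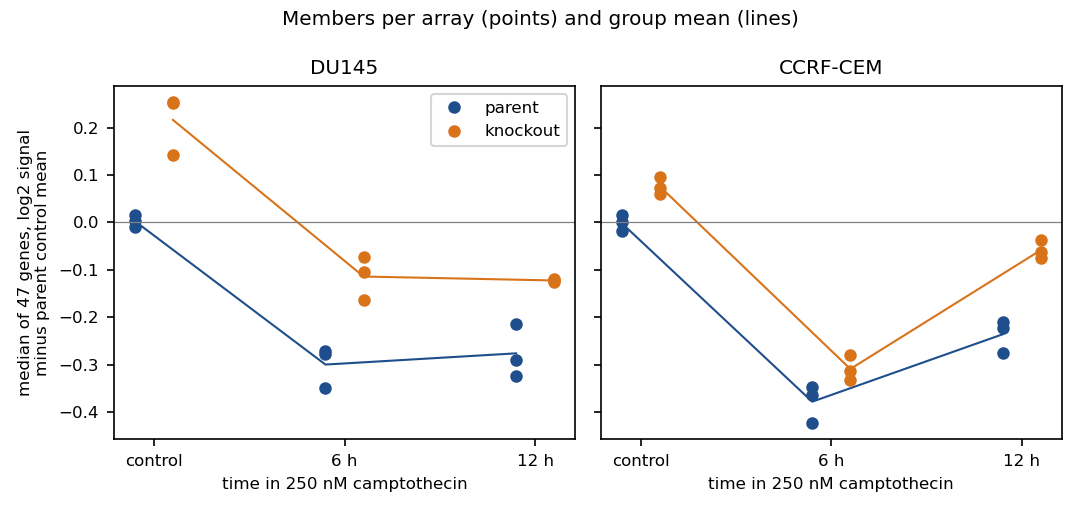
Points give, for each array, the median over the 47 genes of the log2 signal minus the parent control mean of the same line, by time in camptothecin, and lines join group means (n = 3). In the CCRF-CEM panel the knockout points return from between -0.333 and -0.28 at 6 h to between -0.075 and -0.037 at 12 h, while in DU145 both genotypes stay down.

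Among the 8 genes of mitotic entry cyclin B1 had the most negative mean change over the 8 camptothecin contrasts, although CDCA3 was lowest in the DU145 knockout at 6 h and CCNB2 in the CCRF-CEM knockout at both times. CCNB1, the cyclin whose complex with CDK1 starts mitosis, read 10.77, 10.68 and 10.85 in the DU145 parent controls, 10.22, 10.22 and 10.15 at 6 h and 9.89, 10.01 and 9.84 at 12 h. In the DU145 knockout it read 11.36, 11.67 and 11.68 in controls, 10.93, 10.90 and 11.19 at 6 h and 10.42, 10.27 and 10.45 at 12 h. No treated array reached a control of its genotype, and every 12 h array lay below every 6 h array. The log2 changes were -0.57 ± 0.11 and -0.86 ± 0.11 in the parent (adjusted p = 0.00455 and 0.00026) and -0.56 ± 0.11 and -1.19 ± 0.11 in the knockout (adjusted p = 0.00639 and 2.26e-05).

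CCNB1 in CCRF-CEM parent arrays read 11.43, 11.45 and 11.38 in controls, 10.45, 10.55 and 10.72 at 6 h and 10.25, 10.16 and 10.12 at 12 h, changes of -0.84 ± 0.11 and -1.25 ± 0.11 (adjusted p = 0.00013 and 2.56e-06). The CCRF-CEM knockout went from 11.43, 11.18 and 11.39 to 10.50, 10.89 and 10.70 at 6 h and 11.18, 11.07 and 11.14 at 12 h. There the 6 h value fell by 0.63 ± 0.11 (adjusted p = 0.00336), and the 12 h arrays lay above the 6 h arrays. The highest 12 h array and the lowest control both read 11.18, and the 12 h change was -0.20 ± 0.11 (adjusted p = 0.297, not called).

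CDK1 is the kinase partner of these cyclins. In DU145 parent arrays CDK1 read 10.89, 10.86 and 10.67 in controls, 10.40, 10.37 and 10.42 at 6 h and 10.76, 10.86 and 10.85 at 12 h. The 6 h arrays lay below all controls, at -0.41 ± 0.11 (adjusted p = 0.0287), and the 12 h arrays overlapped the controls, at 0.02 ± 0.11. The 6 h call was lost when any of 5 of the 6 arrays was left out. The DU145 knockout read 10.68, 10.98 and 11.05 in controls, 10.55, 10.70 and 10.56 at 6 h and 10.89, 10.68 and 10.68 at 12 h. Its 3 groups overlapped. CDK1 in the CCRF-CEM parent went from 10.92, 10.96 and 10.83 to 10.41, 10.37 and 10.35 and 10.47, 10.51 and 10.41, below all controls at both times (-0.53 ± 0.09 and -0.44 ± 0.09, adjusted p = 0.00122 and 0.00294). The CCRF-CEM knockout read 10.88, 10.87 and 10.92 in controls, 10.60, 10.75 and 10.85 at 6 h and 11.12, 11.12 and 10.90 at 12 h, and neither time was called. Its 6 h arrays lay below the controls and its 12 h arrays overlapped them.

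CCNA2, the cyclin of S phase and G2, fell at 6 h in both genotypes of DU145 and at both times in the CCRF-CEM parent. Its DU145 parent arrays read 10.95, 10.99 and 10.96 in controls, 10.62, 10.43 and 10.54 at 6 h and 10.85, 10.87 and 10.87 at 12 h. Its CCRF-CEM parent arrays read 11.65, 11.71 and 11.64, 11.33, 11.32 and 11.23 and 11.22, 11.18 and 11.09 in the same order. The treated arrays lay below all controls in both lines, and the change at 12 h was -0.10 ± 0.09 in DU145 (not called) and -0.50 ± 0.09 in CCRF-CEM (adjusted p = 0.000905). The DU145 knockout read 11.11, 11.11 and 11.11 in controls, 10.65, 10.83 and 10.86 at 6 h and 10.92, 11.00 and 10.93 at 12 h. In the CCRF-CEM knockout CCNA2 read 11.61, 11.74 and 11.79 in controls, 11.68, 11.60 and 11.83 at 6 h and 11.70, 11.74 and 11.84 at 12 h. Treated arrays lay below the controls in the DU145 knockout and overlapped them in the CCRF-CEM knockout, at -0.01 ± 0.09 and 0.05 ± 0.09.

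FOXM1, the transcription factor that drives many of the other members, was called in none of the 8 camptothecin contrasts. FOXM1 read, in the DU145 parent, 10.49, 10.67 and 10.65 in controls, 10.78, 10.62 and 10.59 at 6 h and 10.50, 10.61 and 10.45 at 12 h. In the DU145 knockout it read 10.48, 10.61 and 10.60 in controls, 10.71, 10.77 and 10.51 at 6 h and 10.62, 10.61 and 10.55 at 12 h. Controls and treated arrays overlapped in both. The CCRF-CEM parent read 10.79, 10.79 and 10.85 in controls, 10.76, 10.82 and 10.85 at 6 h and 10.93, 10.90 and 10.95 at 12 h. CCRF-CEM knockout arrays read 10.88, 10.66 and 10.65 in controls, 10.90, 10.94 and 10.97 at 6 h and 10.98, 10.93 and 10.89 at 12 h. Controls overlapped the 6 h arrays in the parent and lay below the treated arrays of the other 3 groups. The log2 changes of FOXM1 ranged from -0.09 in the DU145 parent at 12 h to 0.20 in the CCRF-CEM knockout. Its other probe sets did not all follow the brightest. At 6 h 15 of its 17 probe sets had a lower mean in the CCRF-CEM parent and 11 in the CCRF-CEM knockout. In the other camptothecin contrasts 7 to 11 did. Of the other entry genes, CCNB2 fell in 6 contrasts, CDCA3 in 6, CDC25B, a phosphatase that activates CDK1, in 2 and its relative CDC25C in 1.

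**Figure D3:**
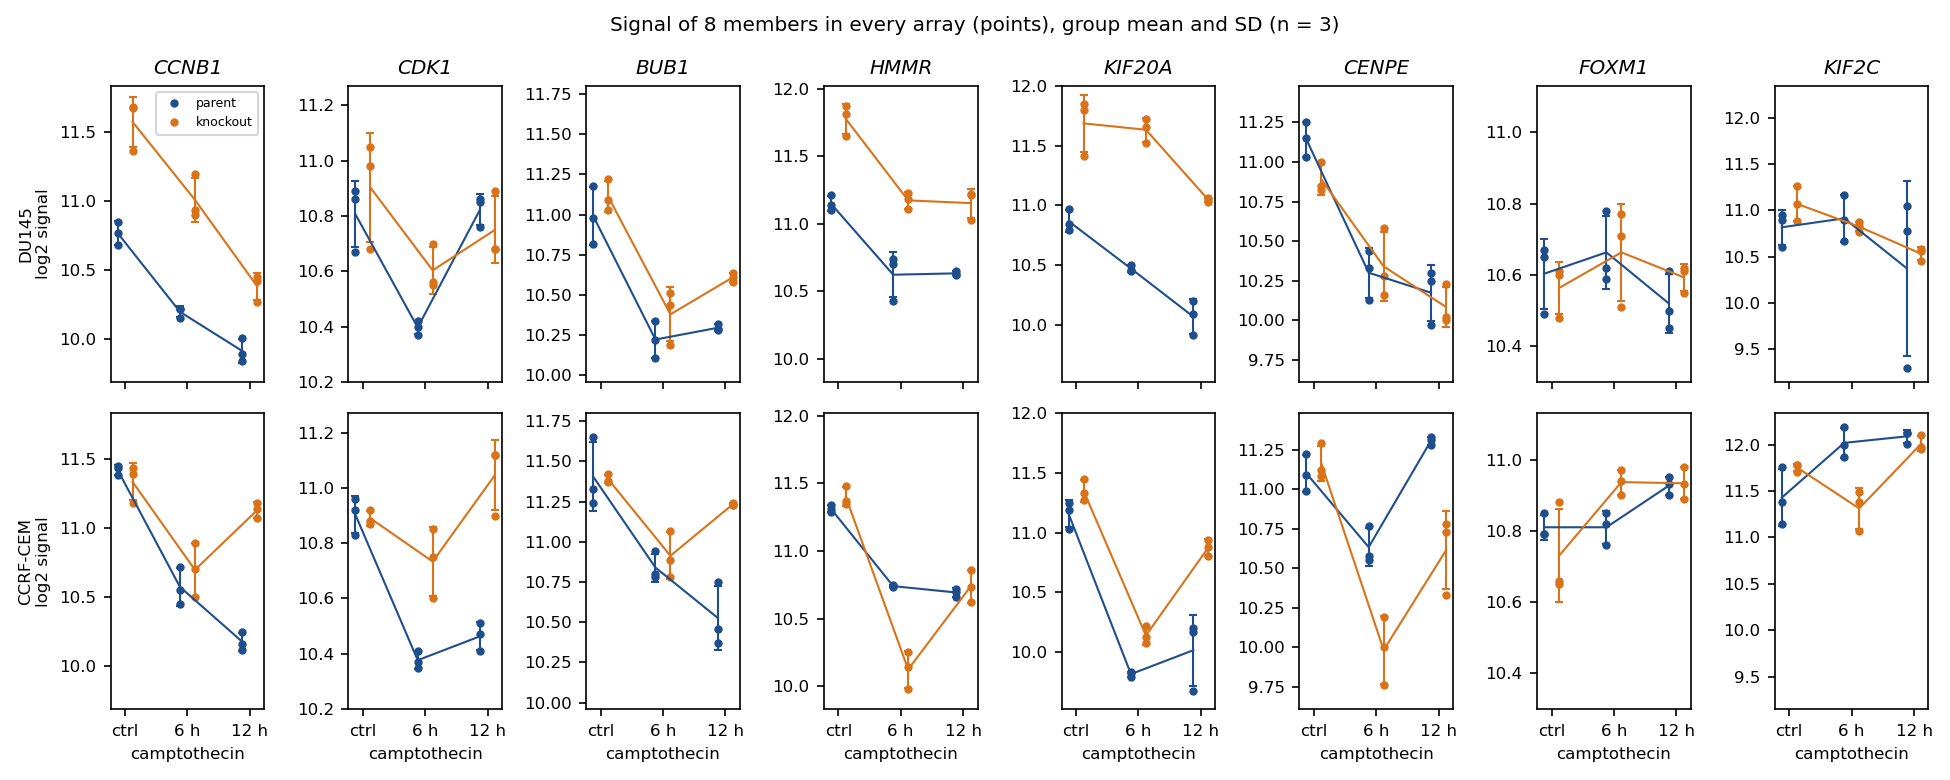
Points show the log2 signal of 8 members in each array of DU145 (upper row) and CCRF-CEM (lower row), with group means joined by lines and bars of 1 SD (n = 3), and each column has 1 vertical range. In CCRF-CEM the CCNB1 parent arrays lie between 10.12 and 10.25 at 12 h and the knockout arrays between 11.07 and 11.18, CENPE is ordered the other way, and the low DU145 parent point of KIF2C at 12 h is replicate 2.

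Within the spindle checkpoint, which holds anaphase until all chromosomes are attached, BUB1 and BUB1B fell in most contrasts and the other members in few or none. BUB1, the kinase that recruits checkpoint proteins to kinetochores, read 10.82, 10.98 and 11.18 in DU145 parent controls and 10.34, 10.22 and 10.11 at 6 h, a change of -0.77 ± 0.11 (adjusted p = 0.000461). Its 12 h arrays read 10.29, 10.28 and 10.32 and lay, like the 6 h arrays, below all controls. The DU145 knockout read 11.03, 11.22 and 11.09 in controls, 10.51, 10.19 and 10.44 at 6 h and 10.64, 10.61 and 10.58 at 12 h. Its treated arrays also lay below its controls. BUB1 fell in both genotypes of both lines at 6 h, and at 12 h in all but the CCRF-CEM knockout, where 11.24, 11.23 and 11.23 stood against 11.42, 11.37 and 11.38 in controls (-0.15 ± 0.12, not called). BUB1B, the checkpoint protein BubR1, was called in the same 7 contrasts, with changes from -0.76 to -0.34. BUB3 and MAD2L1, which bind these kinases and CDC20, were called in none, with changes between -0.30 and 0.26. TTK, the kinase Mps1, fell in the DU145 parent at 6 h (-0.45 ± 0.14) and the DU145 knockout at 12 h (-0.57 ± 0.14).

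Genes of mitotic exit were divided as well. CDC20, the activator of the anaphase-promoting complex, read 12.03, 12.19 and 12.01 in DU145 parent controls, 11.67, 11.72 and 11.90 at 6 h and 11.43, 11.38 and 11.29 at 12 h. In the CCRF-CEM parent it read 12.11, 12.23 and 12.11, 11.37, 11.43 and 11.20 and 11.27, 11.46 and 11.45. The DU145 knockout read 12.19, 12.23 and 12.27 in controls, 11.90, 11.66 and 11.77 at 6 h and 11.59, 11.60 and 11.73 at 12 h. Treated arrays lay below all controls in each of these cell types. Arrays of the CCRF-CEM knockout read 12.28, 12.31 and 12.32 in controls, 11.66, 11.44 and 11.41 at 6 h and 11.77, 11.72 and 11.65 at 12 h. There, too, they lay below the controls. CDC20 was called in 7 contrasts, from -0.81 in the CCRF-CEM parent at 6 h to -0.45 in the DU145 knockout at 6 h, and at 12 h in the CCRF-CEM knockout it was still at -0.59 ± 0.10 (adjusted p = 0.00205).

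UBE2C, the enzyme that starts ubiquitin chains for that complex, fell in 6 contrasts, most in the DU145 knockout at 6 h (-1.07 ± 0.13). UBE2S, which extends those chains, was called in none. PTTG1, the securin that restrains separase, was dim in these arrays: its brightest probe set read 6.41, 6.90 and 6.94 in CCRF-CEM knockout controls, 4.69, 5.84 and 5.35 at 6 h and 6.06, 5.87 and 5.98 at 12 h. All treated arrays lay below the controls, 1 of them below 5.07, the lower quartile of all gene values, and the 6 h change of -1.46 ± 0.25 (adjusted p = 0.00279) ranged from -1.73 to -1.16 with 1 array left out. The CCRF-CEM parent read 6.43, 6.95 and 6.66 in controls, 6.21, 5.82 and 6.14 at 6 h and 5.32, 5.47 and 5.83 at 12 h. ESPL1, separase itself, went the other way in the CCRF-CEM parent, from 10.30, 10.09 and 10.30 in controls to 10.62, 10.67 and 10.89 at 12 h. These groups did not overlap, and ESPL1 rose by 0.50 ± 0.12 (adjusted p = 0.0085), with a lower mean in 7 of its 30 probe sets.

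At the kinetochore CENPE was the member whose course differed most between cell types. CENPE, a motor that carries chromosomes to the spindle equator, read 11.25, 11.15 and 11.03 in DU145 parent controls, 10.44, 10.13 and 10.33 at 6 h and 10.25, 9.97 and 10.30 at 12 h. The DU145 knockout read 10.82, 11.00 and 10.85, 10.16, 10.58 and 10.28 and 10.23, 10.02 and 10.00. Both genotypes stayed below their controls, with the parent at -0.97 ± 0.13 after 12 h (adjusted p = 0.000393). In the CCRF-CEM parent CENPE read 11.09, 11.22 and 10.99, then 10.58, 10.55 and 10.77, then 11.33, 11.28 and 11.31. It fell at 6 h by 0.46 ± 0.13 (adjusted p = 0.0333), a call lost when any of 4 of the 6 arrays was left out, and at 12 h lay above all controls without being called (0.21 ± 0.13). The CCRF-CEM knockout read 11.29, 11.08 and 11.12, 10.00, 10.19 and 9.76 and 10.33, 10.73 and 10.78. It fell at both times, by 1.18 ± 0.13 and 0.55 ± 0.13 (adjusted p = 0.000126 and 0.0215).

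The other kinetochore genes differed from CENPE and among themselves. CENPA, the histone H3 variant of centromeres, read 9.31, 9.43 and 9.29 in DU145 parent controls, 9.19, 9.15 and 9.19 at 6 h and 8.46, 8.38 and 8.47 at 12 h, so that only the 12 h fall was called (-0.91 ± 0.13, adjusted p = 0.000383). In the CCRF-CEM parent CENPA had fallen by 6 h, by 0.89 ± 0.13 (adjusted p = 0.000398). Of the 2 microtubule-binding subunits NDC80 and NUF2, NDC80 fell in 3 DU145 contrasts, by up to 0.67 ± 0.13 in the knockout at 6 h, and rose in the CCRF-CEM knockout at 12 h. There its values were 9.89, 9.95 and 9.97 in controls and 10.34, 10.36 and 10.54 at 12 h, a change of 0.47 ± 0.14 (adjusted p = 0.0456). The groups did not overlap, but the call was lost without any 1 of the 6 arrays. NUF2 fell in the CCRF-CEM knockout at 6 h (-0.39 ± 0.08) and in no other contrast.

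The chromosomal passenger complex, which corrects faulty attachments, changed in part. Its subunit CDCA8 fell in 6 contrasts, by 0.34 to 0.55. BIRC5, the subunit survivin, fell in the CCRF-CEM parent at both times (-0.47 ± 0.10 and -0.44 ± 0.10), and the scaffold INCENP there at 6 h (-0.56 ± 0.14). AURKB, the kinase of the complex, was called once, in the DU145 knockout at 6 h. Its values there were 11.56, 11.46 and 11.37 in controls, 10.96, 11.04 and 11.05 at 6 h and 11.56, 11.62 and 11.46 at 12 h. The 6 h arrays lay below all others, at -0.45 ± 0.10 (adjusted p = 0.0102), and the 12 h arrays overlapped the controls.

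Of the 6 kinesins KIF20A had the most negative mean change over the camptothecin contrasts, although at 6 h KIF14 was lowest in both DU145 genotypes, and KIF2C rose in the CCRF-CEM parent. KIF20A, a motor of the central spindle, read 11.03, 11.25 and 11.19 in CCRF-CEM parent controls, 9.82, 9.79 and 9.83 at 6 h and 10.20, 10.17 and 9.67 at 12 h. The CCRF-CEM knockout read 11.33, 11.27 and 11.45, 10.12, 10.07 and 10.22 and 10.80, 10.94 and 10.88. No treated array reached a control, and the 6 h changes were -1.34 ± 0.13 in the parent and -1.22 ± 0.13 in the knockout (adjusted p = 6.76e-06 and 5.79e-05). In the DU145 knockout KIF20A was at -0.06 ± 0.12 after 6 h, not called, and fell by 0.64 ± 0.12 at 12 h (adjusted p = 0.00371).

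KIF2C, a kinesin that takes microtubules apart, read 11.15, 11.38 and 11.76 in CCRF-CEM parent controls, 12.00, 11.87 and 12.19 at 6 h and 12.01, 12.13 and 12.13 at 12 h. The treated arrays lay above all controls, by 0.59 ± 0.15 and 0.66 ± 0.15 (adjusted p = 0.0141 and 0.00515). The CCRF-CEM knockout read 11.78, 11.78 and 11.71, 11.38, 11.49 and 11.07 and 11.95, 12.11 and 11.98, with the 6 h arrays below and the 12 h arrays above all controls and no call at either time. The 6 h call was lost without any of 3 of the 6 arrays and with the mean of all 23 KIF2C probe sets, of which 6 had a lower mean in the parent at 6 h. KIF11, KIF14 and KIF4A fell in 4, 6 and 6 contrasts, and KIF23 in 1.

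Among the 11 genes of spindle assembly, AURKA and HMMR were called lower in every camptothecin contrast. AURKA, the kinase that matures centrosomes, read 10.61, 10.70 and 10.54 in DU145 parent controls, 9.85, 9.94 and 9.83 at 6 h and 9.92, 9.77 and 9.73 at 12 h. In the CCRF-CEM parent it read 10.52, 10.59 and 10.66, 10.15, 10.21 and 10.15 and 10.20, 10.16 and 10.05. The DU145 knockout read 10.80, 11.00 and 11.12 in controls, 10.19, 10.38 and 10.37 at 6 h and 9.93, 10.02 and 9.79 at 12 h. Treated arrays lay below all controls, and in both parents the 6 h and 12 h arrays overlapped each other. AURKA in the CCRF-CEM knockout read 10.43, 10.48 and 10.60 in controls, 9.62, 9.73 and 9.87 at 6 h and 9.80, 9.96 and 10.26 at 12 h. The changes of AURKA ran from -0.41 in the CCRF-CEM parent at 6 h to -1.06 in the DU145 knockout at 12 h. The call in the CCRF-CEM parent at 6 h was lost without any of 5 of the 6 arrays, and both CCRF-CEM parent calls of AURKA were lost with equal housekeeping medians and with the mean of all probe sets.

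HMMR, a microtubule-associated protein of the spindle, read 11.29, 11.31 and 11.34 in CCRF-CEM parent controls, 10.74, 10.73 and 10.75 at 6 h and 10.72, 10.66 and 10.70 at 12 h. HMMR in the CCRF-CEM knockout read 11.37, 11.48 and 11.35, 9.98, 10.14 and 10.25 and 10.62, 10.73 and 10.86. The 6 h arrays of the knockout lay below those of the parent, with changes of -1.28 ± 0.09 and -0.57 ± 0.09 (adjusted p = 3.63e-06 and 0.000629), and at 12 h the genotypes overlapped. CKAP2, which stabilises microtubules, rose in the CCRF-CEM parent at 12 h, from 10.28, 10.45 and 10.30 to 10.65, 10.63 and 10.61. The groups did not overlap, but this change of 0.28 ± 0.09 (adjusted p = 0.0475) was lost when any of 5 of the 6 arrays was left out.

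The other spindle genes were called in few contrasts. DLGAP5, which stabilises kinetochore fibres, was called lower in 3 contrasts, all in CCRF-CEM. It was not called in DU145, but 20 to 22 of its 22 probe sets had a lower mean in each camptothecin contrast there. GTSE1, a microtubule-associated protein, fell in 3 contrasts. ASPM, a spindle pole protein, was called lower in the DU145 parent at both times (-0.43 ± 0.11 and -0.68 ± 0.11). Of its 33 probe sets 31 to 33 had a lower mean in every camptothecin contrast of both lines. TPX2, the activator of AURKA, the centrosomal kinase NEK2, CKAP2L and NUSAP1 fell in 1 contrast each, and TACC3 in none. CKAP2 fell in the DU145 knockout at 12 h (-0.43 ± 0.10). Of the cytokinesis genes ECT2, the exchange factor that activates RhoA at the cell equator, fell in 5 contrasts, the scaffold ANLN in 4 and PRC1, which bundles midzone microtubules, in 1.

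Few members were called between 6 h and 12 h, and the direction of the calls differed between cell types. By limma an unadjusted p below 0.05 was seen for 14 members in the DU145 parent and 10 in the DU145 knockout. In the CCRF-CEM parent it was seen for 15 and in the CCRF-CEM knockout for 34. In DU145 CENPA fell in the parent by 0.74 ± 0.13 (adjusted p = 0.023), the 1 call among 47 (0.368% of all genes fell and 0.0854% rose), and it was lost without any of 5 of the 6 arrays. In the DU145 knockout CENPA and CCNB1 fell, by 0.93 ± 0.13 and 0.63 ± 0.11, and AURKB rose by 0.53 ± 0.10 (0.193% of all genes in each direction). With any 1 of the 6 arrays left out these 3 calls became 1. In the CCRF-CEM parent CENPE and ANLN rose by 0.67 ± 0.13 and 0.37 ± 0.08 and CCNB1 fell by 0.40 ± 0.11 (3% of all genes rose and 2.78% fell). These 3 calls became 1 without 6 h replicate 1, 6 h replicate 2 or 12 h replicate 2, and 0 without 12 h replicate 1.

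In the CCRF-CEM knockout 45 of the 47 members had a higher mean at 12 h than at 6 h, and 5 of them were called higher with 0 lower (0.359% and 0.157% of all genes). These were KIF20A (0.74 ± 0.13, adjusted p = 0.0195), KIF2C (0.70 ± 0.15), DLGAP5 (0.65 ± 0.10), HMMR (0.61 ± 0.09) and the spindle protein NUSAP1 (0.41 ± 0.08). DLGAP5 read 11.84, 11.99 and 11.88 in controls, 11.21, 11.18 and 11.38 at 6 h and 11.86, 11.98 and 11.88 at 12 h, so that the 12 h arrays overlapped the controls and lay above all 6 h arrays. The median change of the members was 0.27 against -0.02 over all genes. The 5 calls became 2 without 6 h replicate 1, 1 without 6 h replicate 2, 3 without 6 h replicate 3, 1 without 12 h replicate 2 and 2 without 12 h replicate 3. With every array moved so that its median over 15 housekeeping genes was equal, 0 of the 5 were called, and with the mean of all probe sets as a gene's value 19 members were.

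Whether the camptothecin change depended on the genotype was tested as the change in the parent minus that in the knockout. In DU145 0 members were called at 6 h, at 12 h or between them by limma (either direction 1.11%, 1.13% and 0.027% of all genes), and 3, 6 and 5 members had an unadjusted p below 0.05. The settings tried gave 0 to 2 calls at 6 h and 0 or 1 at 12 h. The member medians of this difference were -0.01 at 6 h and 0.09 at 12 h, and single members ranged from -0.43 to 0.80 at 12 h. The largest of these was NEK2, whose change was 0.04 ± 0.21 in the parent and -0.76 ± 0.21 in the knockout.

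In CCRF-CEM 2 members were called at 6 h, both higher in the parent's change (1.54% of all genes higher, 0.696% lower). KIF2C differed by 1.04 ± 0.21 (adjusted p = 0.0177), having risen in the parent, and HMMR by 0.71 ± 0.13 (adjusted p = 0.00984), having fallen further in the knockout. Equal housekeeping medians left neither call, and with the mean of all probe sets neither gene was called.

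At 12 h 8 members were called in CCRF-CEM, 7 with a more negative change in the parent and 1 with a more positive one (4.28% and 3.63% of all genes). The 7 were CCNB1 (-1.04 ± 0.16, adjusted p = 0.00108), BUB1 (-0.73 ± 0.17), KIF20A (-0.67 ± 0.18), BUB1B (-0.62 ± 0.13), CDK1 (-0.60 ± 0.13), CCNA2 (-0.55 ± 0.12) and DLGAP5 (-0.50 ± 0.14). All 7 had fallen in the parent at 12 h, and of these only KIF20A had also fallen in the knockout. CENPE was the exception, at 0.75 ± 0.19 (adjusted p = 0.0245), with the knockout below control and the parent not. The member median of the difference was -0.17 against 0.01 over all genes.

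Equal housekeeping medians moved the all-gene median of this contrast to 0.15 and the member median to -0.04, and left calls for CCNB1 and CENPE alone. Of the 15 housekeeping genes behind that scaling 4 were themselves called lower and 2 higher in this contrast (4.28% and 3.63% of all genes). IPO8 was at -1.10 and EEF1A1 at 0.95, and the effect of these changes on the scaling was not tested. The 8 calls became 5 without parent control replicate 3, without parent 12 h replicate 1 or without knockout control replicate 1. The call of DLGAP5 was lost without any of 9 of the 12 arrays, that of KIF20A without 6, that of CENPE without 3 and that of BUB1 without 1. For the step from 6 h to 12 h the genotypes differed in 3 members, CCNB1 (-0.84 ± 0.16), ECT2 (-0.70 ± 0.15) and HMMR (-0.66 ± 0.13), all with the lower value of the step in the parent (0.503% of all genes lower, 0.584% higher). These 3 calls became 2 without knockout 6 h replicate 3, 1 without parent 6 h replicate 1 or knockout 12 h replicate 1, and 0 without any of the other 9 arrays, and equal housekeeping medians gave 0.

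**Figure D4:**
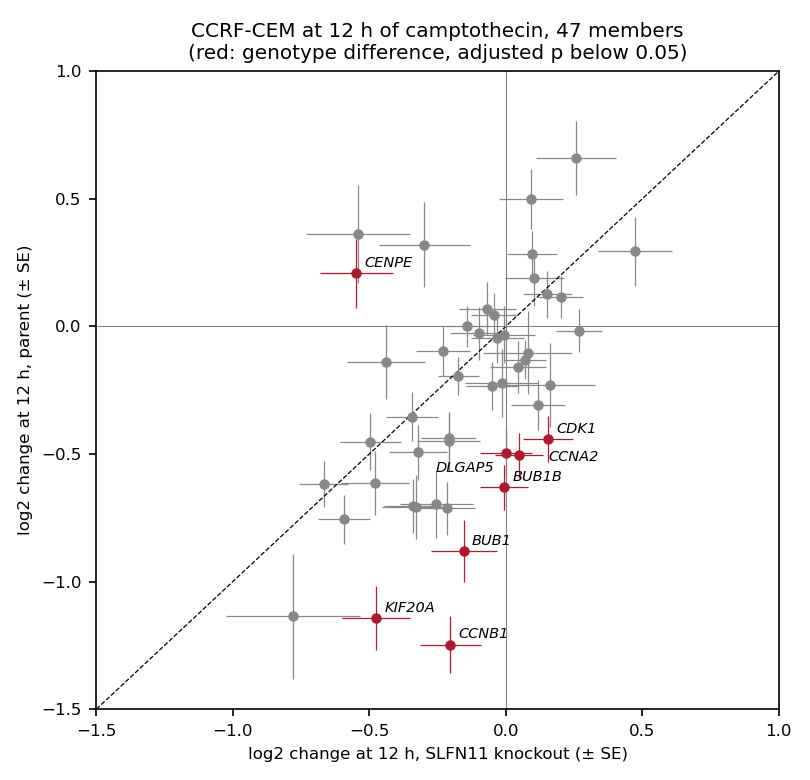
Each point is 1 of the 47 genes, placed by its log2 change at 12 h in the CCRF-CEM knockout (horizontal) and parent (vertical), with bars of 1 SE, and the dashed line marks equal changes. The 7 red genes below the line, led by CCNB1, changed by -1.25 to -0.44 in the parent, and CENPE lies above it.

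Without drug the DU145 knockout already carried more of these transcripts than its parent. There 13 members were higher and 0 lower (6.1% and 5.26% of all genes), with a median difference of 0.24 against 0.01 over all genes. CDC25C, the phosphatase that activates CDK1, read 8.96, 8.89 and 8.91 in knockout controls and 7.78, 7.85 and 7.90 in parent controls, a difference of 1.07 ± 0.12 (adjusted p = 5.57e-05). KIF20A read 11.41, 11.80 and 11.85 against 10.97, 10.84 and 10.79 (0.82 ± 0.12, adjusted p = 0.000773). Neither pair of groups overlapped. CCNB1 and CCNB2 were higher by 0.80 ± 0.11 and 0.75 ± 0.13, and HMMR by 0.62 ± 0.10.

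PTTG1 (1.19 ± 0.31), NEK2, UBE2S, CDCA3, UBE2C, AURKA, BIRC5 and CKAP2 made up the rest, with differences of 0.33 to 1.19. The 5 with values above were also called with equal housekeeping medians, where 6 members were called in all. The count was 8 without parent control replicate 3 or without knockout control replicate 2. PTTG1 was dim, at 4.89, 5.91 and 6.12 in parent controls against 6.74, 6.79 and 6.97 in knockout controls. The first of these lay below 5.07, the lower quartile of all gene values. Of the 6 epithelial markers the cadherin CDH1 was 1.06 lower and the keratin KRT8 0.54 higher in the same knockout, with a list median of 0.10. Of the 10 regulators of mitotic entry 2 were lower, with PKMYT1, a kinase that inhibits CDK1, at -1.30, and CDKN1A was 0.52 higher. Their part in the result was not tested. These knockout controls are also the base of the knockout's camptothecin changes, so the level after 12 h is given beside them: CCNB1 then read 10.42, 10.27 and 10.45 in the knockout and 9.89, 10.01 and 9.84 in the parent. In untreated CCRF-CEM 0 members were called by limma (0.993% of all genes higher, 0.521% lower), with 4 at an unadjusted p below 0.05, a median of 0.07, and 0 to 2 calls over the settings tried.

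**Figure D5:**
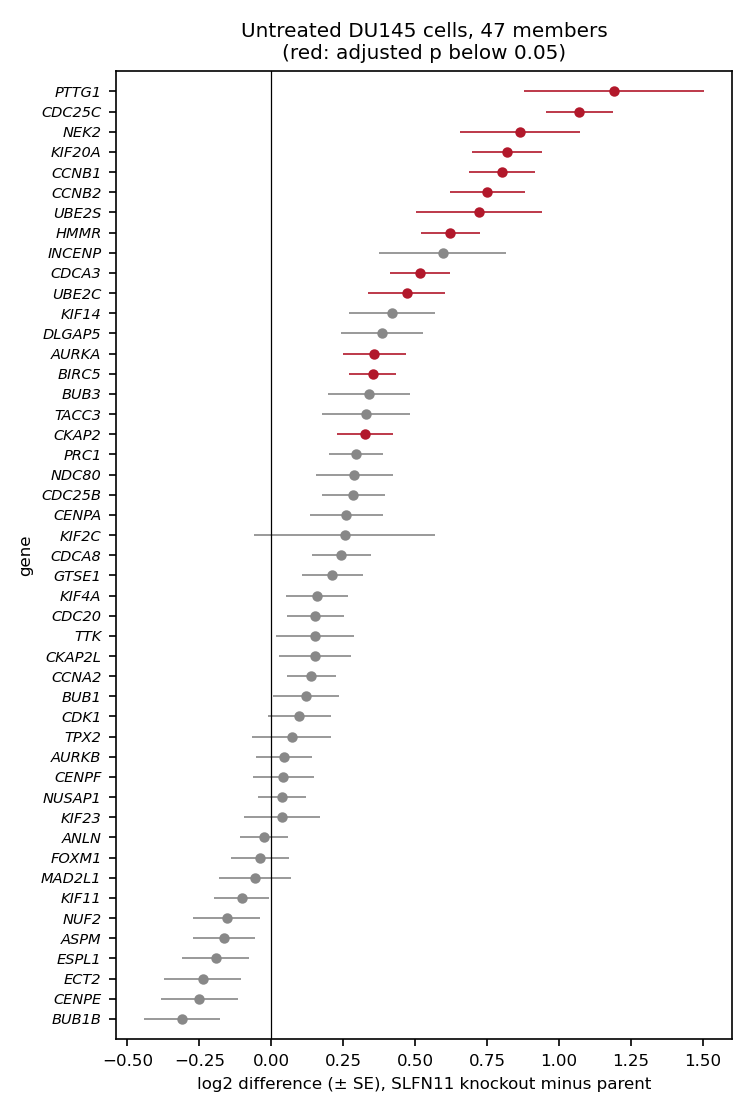
Points give the log2 difference, knockout minus parent, of each of the 47 genes in untreated DU145 cells, with bars of 1 SE. Red points mark the 13 genes called higher, from CKAP2 at 0.33 to PTTG1, which was dim, at 1.19.

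The parents of the 2 lines differed in a few members. At 6 h the change in DU145 minus that in CCRF-CEM was called for 5 members: KIF20A (0.94 ± 0.17, adjusted p = 0.0011), CENPA (0.72 ± 0.18), BIRC5 (0.56 ± 0.12) and CDC20 (0.50 ± 0.13) had the more negative change in CCRF-CEM, and KIF11 (-0.49 ± 0.12) in DU145 (2.6% of all genes higher, 2.68% lower). Without CCRF-CEM 6 h replicate 3 there were 3 calls. The calls of CENPA, BIRC5 and CDC20 were lost with equal housekeeping medians, which moved the all-gene median from 0.04 to -0.18, and with the mean of all probe sets. At 12 h 9 members were called, 4 higher and 5 lower (4.64% and 5.88% of all genes). CENPE differed most, by -1.18 ± 0.19 (adjusted p = 9.28e-05), followed by KIF2C (-1.10 ± 0.36), ASPM (-0.65 ± 0.14), KIF11 (-0.57 ± 0.12) and ANLN (-0.36 ± 0.10), all lower in DU145. CCNB2 (0.65 ± 0.18), CDK1 (0.46 ± 0.13), BIRC5 (0.45 ± 0.12) and CCNA2 (0.40 ± 0.11) were higher in DU145. All 4 of these higher calls were lost with equal housekeeping medians, where the all-gene median went from 0.02 to -0.15. With the mean of all probe sets CDK1, BIRC5, ANLN, ASPM, KIF11 and KIF2C were not called. The KIF2C call was lost without any of 8 of the 12 arrays. DU145 parent replicate 2 read 9.30 at 12 h against 11.05 and 10.78 in the others, and without it the difference was -0.56 (adjusted p = 0.119).

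Beyond the 47, 61 further mitotic genes were measured, and they were divided in direction. In DU145 9 and 11 of the 61 fell and 6 and 6 rose in the parent at 6 h and 12 h, where 4.42% and 3.89% of all genes fell and 5.67% and 3.8% rose. In the DU145 knockout 10 and 11 fell and 2 and 5 rose (all genes 3.39% and 3.72%, and 5.32% and 6.31%). In CCRF-CEM 9 and 13 fell and 7 and 17 rose in the parent (all genes 5.06% and 7.3%, and 7.36% and 9.51%). In the CCRF-CEM knockout 8 and 1 fell and 3 and 8 rose (all genes 2.92% and 2.81%, and 3.52% and 5.4%). These all-gene shares are also those to set beside the lists that follow. The outer kinetochore gene SKA1 rose by 1.32 ± 0.18 in the CCRF-CEM parent at 12 h (adjusted p = 0.000124), and the spindle gene PSRC1 fell there by 1.28 ± 0.20 at 6 h. The 16 genes of the anaphase-promoting complex and its regulators gave at most 3 calls in 1 direction in any camptothecin contrast, save 4 higher in the CCRF-CEM knockout at 12 h. FBXO5, the inhibitor EMI1 of that complex, rose in the DU145 parent by 0.60 ± 0.11 at 6 h and 0.73 ± 0.11 at 12 h, and in all 4 CCRF-CEM contrasts.

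Of 10 regulators of entry into mitosis 5 and 4 rose in the DU145 parent at 6 h and 12 h, 4 and 5 in the DU145 knockout, and 4 and 4 in the CCRF-CEM parent, where 2 fell at 12 h. In the CCRF-CEM knockout 3 rose at 6 h and 0 were called at 12 h. CDKN1A, the inhibitor p21, was dim in CCRF-CEM parent controls, at 5.33 ± 0.61 (SD, n = 3), and rose in the CCRF-CEM parent by 2.43 ± 0.27 at 6 h and 3.19 ± 0.27 at 12 h (adjusted p = 3.94e-05 and 1.92e-06), and its genotype difference at 12 h was 2.37 ± 0.39 (adjusted p = 0.00209). GADD45A, a stress-induced inhibitor of CDK1, rose in the DU145 parent by 2.64 ± 0.10 at 6 h, with a genotype difference of 2.09 ± 0.15 (adjusted p = 3.88e-06). Not every riser restrains entry: CDC25A, which activates cyclin-dependent kinases, rose in the DU145 parent by 0.85 and 0.96 and is one of the 10. Among 12 genes of the DREAM and MuvB complexes LIN37 rose in the CCRF-CEM parent by 0.92 ± 0.16 and 1.36 ± 0.16, while 4 of the 12 fell there at 12 h.

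The members were read by 836 probe sets in all, 4 to 45 per gene, and most of them pointed the same way as the brightest ones. At 6 h 84.3% of the 836 had a lower mean in the DU145 parent, 88.3% in the DU145 knockout, 82.7% in the CCRF-CEM parent and 86.6% in the CCRF-CEM knockout. At 12 h the shares were 80.3%, 87.1%, 70.6% and 64.6% in that order, and probe sets of 1 gene are not independent. Between 6 h and 12 h 86.0% of them had a higher mean at the later time in the CCRF-CEM knockout and 64.4% in the CCRF-CEM parent, against 58.4% and 43.4% in the DU145 parent and knockout. CDK1 was lower at 12 h in 13 of its 13 probe sets in the CCRF-CEM parent and in 2 of 13 in the knockout. CCNA2 was lower in 9 of 9 and 4 of 9. Most probe sets of the other members with a more negative change in the parent were lower in both genotypes. In the parent and knockout these were 12 and 11 of 13 for CCNB1, 28 and 26 of 28 for BUB1 and 25 and 25 of 26 for BUB1B. For KIF20A they were 21 and 19 of 21, and for DLGAP5 21 and 18 of 22. CENPE was lower in 8 of 45 in the parent and in 43 of 45 in the knockout.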

How the data were processed

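The arrays were Affymetrix GeneChip arrays hybridised with labelled RNA from each culture. The deposited values are log2 signals, 1 per probe set and array, made by the authors with RMA in Partek, per the submitters' processing notes; versions and genome build are not given in the sources used here. No read depth applies to arrays, and the number of arrays limits the precision.

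Of 352859 probe sets 259224 had 1 gene symbol, 13116 had several and 80519 none in the platform annotation. Symbols were brought up to date with RefSeq (20529 of 22320 were current and 1726 were updated), and the brightest probe set over all 36 arrays stood for each of 22260 genes. limma 3.58.1 (R 4.3.3) fitted the 6 groups of each line on 18 arrays (12 residual degrees of freedom), or all 36 arrays for differences between lines, with moderated variances and Benjamini-Hochberg adjustment over all genes. Tables and plots used Python 3.11.15, pandas 2.3.3 and matplotlib 3.10.9.

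The members and lists were chosen with earlier results of these data known. Values in every array are given for CCNB1, CDK1, CCNA2, FOXM1, CDC20 and AURKA, and in the groups a statement compares for the 4 members per line that fell most on average, for those that rose and for the largest between times or genotypes. Genes named outside this rule were chosen after their values were seen. In data simulated for the parent 6 h contrasts, 100 of the 22260 genes were given a log2 change of 1 and 100 a change of 0.5, drawn from all genes. Changes of 1 were recovered in 53% of cases for DU145 and 56% for CCRF-CEM, and changes of 0.5 in 19% and 14%, with 4 false calls each. More genes were called in the data (984 lower and 1263 higher in the DU145 parent at 6 h), so these shares are not those for the members. Deviations of same-numbered arrays correlated at -0.17 to 0.09 in DU145 and -0.05 to 0.16 in CCRF-CEM. Differently numbered arrays correlated at -0.11 to 0.19 and -0.12 to 0.08. In CCRF-CEM 3 of 45 same-numbered pairs lay above 0.1 and 0 of 90 others, so some pairing there is not excluded. The labels do not say that the numbers mark pairs, and they were not used as pairs. Each comparison was repeated with the replicate number as a block, with all arrays in 1 fit, with trend and robust moderation, after scaling to equal housekeeping medians or by cyclic loess, with a gene's probe sets averaged, without dim genes (threshold 5.07) and without each array in turn.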

Additional observations from a re-analysis of the deposited data

Results flagged for a closer look

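The camptothecin response of several members differed between the CCRF-CEM genotypes, tested as the change in the parent minus that in the knockout. At 12 h the difference was -1.04 for CCNB1, -0.55 for CCNA2, -0.60 for CDK1, -0.73 for BUB1, -0.62 for BUB1B, -0.50 for DLGAP5 and -0.67 for KIF20A, and 0.75 for CENPE. At 6 h it was 0.71 for HMMR and 1.04 for KIF2C. For the step from 6 h to 12 h it was -0.84 for CCNB1, -0.66 for HMMR and -0.70 for ECT2.

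The 2 parent lines also differed, tested as the change in DU145 minus that in CCRF-CEM. At 6 h the differences were 0.50 for CDC20, 0.72 for CENPA, 0.56 for BIRC5, -0.49 for KIF11 and 0.94 for KIF20A. At 12 h they were 0.65 for CCNB2, 0.40 for CCNA2, 0.46 for CDK1, 0.45 for BIRC5, -1.18 for CENPE, -0.36 for ANLN, -0.65 for ASPM, -0.57 for KIF11 and -1.10 for KIF2C. Line and all that differs between the lines cannot be told apart.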

How the results depend on the processing

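None of 2917 alternative values reversed a called direction, and 90 of 213 calls of single members were lost without some array; the cause was not tested where a value moved. Equal housekeeping medians moved the all-gene median by over 0.1 in several contrasts (from 0.04 to -0.19 for the DU145 parent at 6 h, from 0.04 to -0.12 for its knockout at 6 h, from -0.02 to -0.12 for the CCRF-CEM knockout step from 6 h to 12 h, and from 0.01 to 0.15 for the CCRF-CEM genotype difference at 12 h), so the member medians are read relative to that shift. With equal housekeeping medians the counts of called members became 0 for the step from 6 h to 12 h in the DU145 parent and 0 in its knockout, 6 for untreated DU145, and in CCRF-CEM 1 for the parent step, 0 for the knockout step, 5 for the knockout at 12 h, and 0, 2 and 0 for the genotype differences at 6 h, at 12 h and in the step. The member medians became -0.54, -0.42 and 0.14 (DU145 parent at 6 h, 12 h and the step), -0.48, -0.50 and 0.02 (DU145 knockout), 0.17 (untreated DU145), -0.16 and 0.22 (CCRF-CEM parent at 12 h and the step), -0.17 and 0.18 (CCRF-CEM knockout), -0.04 and -0.02 (CCRF-CEM genotype difference at 12 h and in the step), 0.01 (untreated CCRF-CEM), and -0.17 and -0.24 (line difference at 6 h and 12 h). Cyclic loess gave 1 call for the DU145 genotype difference at 6 h and 3 for the CCRF-CEM knockout step, with medians of -0.17 for the CCRF-CEM knockout at 12 h and -0.10 for the genotype difference at 12 h.

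With the mean of all probe sets there were 27 calls for the DU145 parent at 12 h, 3 for its step, 31 for the DU145 knockout at 6 h, 2 and 1 for the DU145 genotype difference at 6 h and 12 h, and in CCRF-CEM 5 for the parent step, 19 for the knockout step, 1 for the genotype difference at 6 h and 1 untreated. The medians were then -0.46, -0.42 and 0.09 (DU145 parent at 6 h, 12 h and the step), -0.46 (DU145 knockout at 6 h), 0.18 (untreated DU145), -0.29 and 0.07 (CCRF-CEM parent at 12 h and the step) and -0.07 (line difference at 6 h). The fit of all arrays gave 4 and 6 calls for the DU145 steps, 1 and 1 for the DU145 genotype differences at 6 h and 12 h, and 6 and 9 for the CCRF-CEM steps. Trend and robust moderation gave 4 and 6 for the DU145 steps, 1 for the DU145 genotype difference at 12 h, and in CCRF-CEM 8 and 15 for the steps, 13 for the knockout at 12 h, 6 and 7 for the genotype differences at 6 h and in the step, and 2 untreated. The filter on dim genes gave 1 for the DU145 genotype difference at 6 h.

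The replicate block, whose numbers are not said to pair the samples, gave 0 calls for the DU145 parent step and 1 for the DU145 knockout step. It gave 3 for the CCRF-CEM knockout step, and kept the other counts within 1.5 times.

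With each array left out in turn the counts ranged over 13 to 17, 12 to 14 and 0 to 1 (DU145 parent at 6 h, 12 h and the step), 10 to 20, 16 to 20 and 1 (DU145 knockout), 0 to 1, 0 to 1 and 0 (DU145 genotype difference), 8 to 10 (untreated DU145), 20 to 24, 20 to 23 and 0 to 2 (CCRF-CEM parent), 18 to 19, 2 to 6 and 1 to 5 (CCRF-CEM knockout), 2, 5 to 9 and 0 to 2 (CCRF-CEM genotype difference), 0 (untreated CCRF-CEM), and 3 to 5 and 7 to 10 (line difference at 6 h and 12 h). Medians ranged over -0.35 to -0.27 and -0.40 to -0.32 (DU145 parent and knockout at 6 h), 0.18 to 0.25 (untreated DU145), and -0.23 to -0.16 and -0.15 to -0.10 (CCRF-CEM parent and knockout at 12 h).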
